A study of Homo sapiens with 10 samples.

Results

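The dual-specificity phosphatases (DUSPs) that act on mitogen-activated protein (MAP) kinases were examined in RPE-1 cells, an established line of telomerase-immortalized human retinal pigment epithelial cells, after exposure to sulforaphane (SFN). The 10 genes DUSP1, DUSP2, DUSP4, DUSP5, DUSP6, DUSP7, DUSP8, DUSP10, DUSP14 and DUSP16 were chosen by symbol, and each had 1 row among the 28380 genes of the count table. Cells in complete medium received 25 µM SFN for 4 h, and control cells received the vehicle DMSO alone for 4 h (5 replicates each). All libraries came from this single line, and the labels do not say whether the replicates were separate cultures, so p-values measure only the spread between these samples, which may be technical. The question put to the data was whether the mRNAs of these phosphatases differed between SFN and DMSO.

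MAP kinases (ERK, JNK and p38) are active only when a threonine and a tyrosine in their activation loop are both phosphorylated. DUSPs of this family remove both phosphates and so switch the kinases off, and many of them are transcribed in response to the very kinases they inactivate, which makes them feedback inhibitors. DUSP1, DUSP2, DUSP4 and DUSP5 are nuclear and inducible, DUSP6 and DUSP7 are cytoplasmic and prefer ERK, DUSP8, DUSP10 and DUSP16 prefer JNK and p38, and DUSP14 is an atypical, short member without the kinase-binding domain of the others.

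SFN moved these genes in both directions. DUSP6 and DUSP5 rose 3.08-fold and 2.48-fold, and DUSP14 rose 1.35-fold. DUSP7 fell to 0.366 of its DMSO level, DUSP4 to 0.502 and DUSP10 to 0.523. DUSP1, the best-known stress-induced member, differed by less than the spread between replicates, DUSP16 did not pass the test, and DUSP2 and DUSP8 had too few counts to pass the low-count filter.

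Each library held between 12375860 and 20666692 counts, of which 2482 to 3398 belonged to the 10 genes. Levels are CPM (a gene's counts scaled to a common library size) after scaling by the trimmed mean of M-values (TMM), with no division by transcript length, so levels are compared only within a gene. DMSO replicate 1 stood apart from the other DMSO libraries, with a mean Spearman correlation across genes of 0.935 to them, against 0.979 to 0.982 for the others. The epithelial and mesenchymal genes KRT8, KRT18 and VIM were abundant in every library (at least 316, 169 and 5420 CPM), whereas the epithelial gene EPCAM had at most 2 counts. Of the markers of mature retinal pigment epithelium, RPE65, RLBP1, TYRP1 and TTR had at most 4 counts in any library, PMEL had 7 to 29 counts, and BEST1 was present in every library at 5.42 to 107 CPM. In all, 4 blood and endothelial markers summed to at most 1.25 CPM. The melanocyte and pigment epithelium regulator MITF was present in every library and fell from 50.8 ± 4.95 to 23.4 ± 2.78 CPM with SFN (SD, n = 5 each), and its part in the results was not tested.

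A total of 13378 genes passed the filter, 8 of the 10 DUSPs among them, and significance means an adjusted p under 0.05 by edgeR (quasi-likelihood). Of the 8 genes, 3 were increased and 3 decreased, while 9.07% of all genes tested were increased and 13.9% decreased. More than 2-fold, 2 were increased (2.94% of all genes) and 1 decreased (5.76% of all genes). In 3 of the 8 every SFN replicate lay above every DMSO replicate, as in 8.78% of all genes, and in 2 every SFN replicate lay below, as in 11.1%. The median log2 fold change of the 8 was 0.22, and that of all genes tested was -0.03. Without DMSO replicate 1, 3 were again increased and 3 decreased, against 22.5% and 23.5% of all genes tested.

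**Figure D1:**
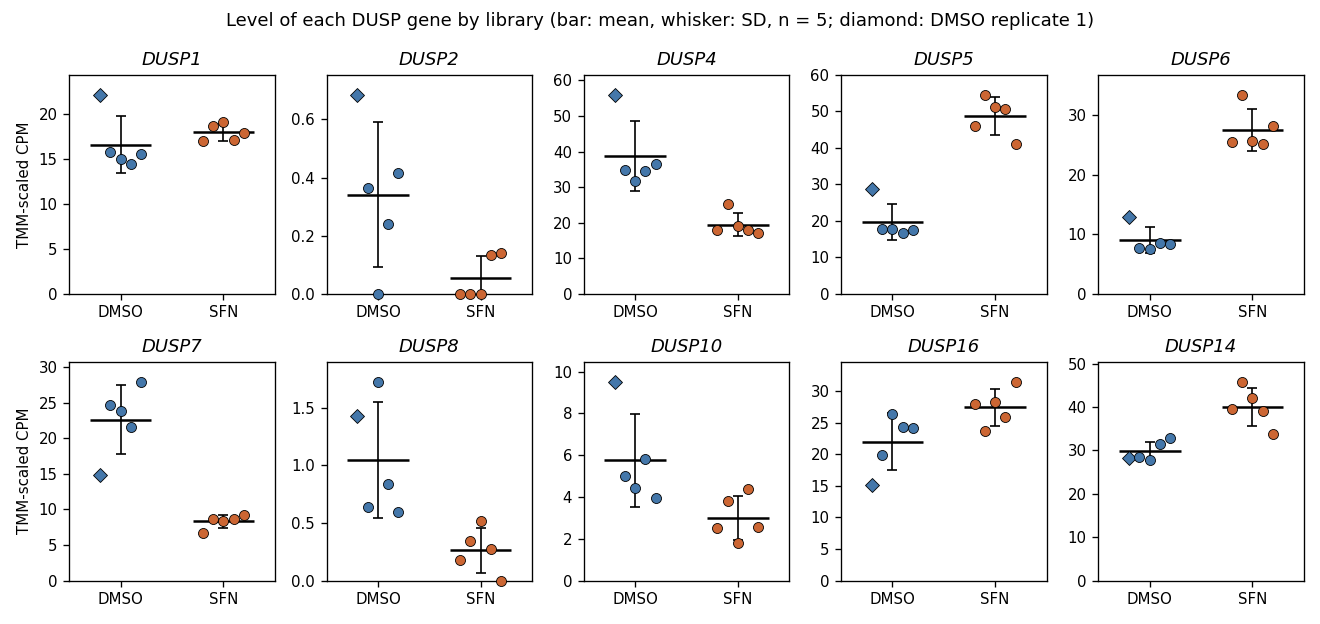
TMM-scaled CPM (linear axes from 0) of the 10 DUSP genes in each of the 5 DMSO and 5 SFN libraries, with the mean (bar) and SD (whisker) of each group and DMSO replicate 1 drawn as a diamond. SFN points lie above all DMSO points for DUSP5, DUSP6 and DUSP14 and below them for DUSP4, DUSP7 and DUSP8, and the diamond is the highest DMSO point for DUSP1, DUSP2, DUSP4, DUSP5, DUSP6 and DUSP10.

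Promoter sequences are shown for the pair that moved most strongly in opposite directions, DUSP6 and DUSP7, and for DUSP1 and DUSP8, which carry a full cAMP response element (CRE), the site bound by CREB and ATF factors. RefSeq (GRCh38.p14) gave a promoter for 8 of the 10 genes, DUSP4 and DUSP5 not being matched. Each sequence is the 250 bases before the annotated transcription start, read on the gene's strand from 5′ to 3′, with motif matches in capitals. Positions are chr12:89352502-89352751 for DUSP6, chr3:52056572-52056821 for DUSP7, chr5:172771196-172771445 for DUSP1 and chr11:1572272-1572521 for DUSP8, all on the minus strand.
DUSP6: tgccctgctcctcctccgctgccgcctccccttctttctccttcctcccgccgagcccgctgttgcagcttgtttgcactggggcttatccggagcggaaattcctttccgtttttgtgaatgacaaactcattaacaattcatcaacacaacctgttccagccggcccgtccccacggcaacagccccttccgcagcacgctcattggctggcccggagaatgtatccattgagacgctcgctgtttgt
DUSP7: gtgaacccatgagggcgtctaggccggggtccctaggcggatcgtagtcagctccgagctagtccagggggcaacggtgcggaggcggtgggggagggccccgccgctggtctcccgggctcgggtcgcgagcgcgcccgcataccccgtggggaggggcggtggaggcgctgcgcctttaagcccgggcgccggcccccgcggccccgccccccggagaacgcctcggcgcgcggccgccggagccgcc
DUSP1: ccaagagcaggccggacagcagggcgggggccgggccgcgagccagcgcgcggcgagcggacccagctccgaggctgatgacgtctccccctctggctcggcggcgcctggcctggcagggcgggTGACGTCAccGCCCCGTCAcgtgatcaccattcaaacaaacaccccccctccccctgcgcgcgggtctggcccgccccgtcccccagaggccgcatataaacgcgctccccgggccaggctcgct
DUSP8: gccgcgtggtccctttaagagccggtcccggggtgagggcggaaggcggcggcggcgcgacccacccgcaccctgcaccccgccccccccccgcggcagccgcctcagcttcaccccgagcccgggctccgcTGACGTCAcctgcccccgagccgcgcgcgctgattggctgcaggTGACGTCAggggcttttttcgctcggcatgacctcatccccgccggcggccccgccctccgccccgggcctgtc

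Motifs were searched on both strands in these 250 bases. The CRE (TGACGTCA) was present in 2 of the 8 promoters, once in DUSP1 (125 bases before the start) and at 2 places in DUSP8 (118 and 74 bases before), while 1.65% of 35116 promoters held it. The EGR1 site (GCGNGGGCG) was in the promoters of DUSP2, DUSP14 and DUSP16, against 8.41% of all. Every fixed base of this site is G or C, and the 35116 promoters were not matched for base composition. The antioxidant response element core (TGACNNNGC), bound by NRF2, matched once in DUSP1, 115 bases before the start, and in 10.9% of all promoters. No match was found in the 8 promoters for the AP-1 site (TGANTCA, 6.57% of all), the ATF4 and CHOP element (TGATGNAA, 3.14%), the heat shock element (GAANNTTC, 5.78%) or the CArG box of serum response factor (1.16%). The windows were between 56.4% (DUSP10) and 82.8% (DUSP14) G and C. None of the motifs searched was in the DUSP6, DUSP7 or DUSP10 windows.

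Among the nuclear phosphatases, DUSP5 increased and DUSP4 decreased. DUSP5 (ENSG00000138166, GRCh38 chr10:110497907-110511533, plus strand, 4 exons) encodes a phosphatase selective for ERK. Its level was 28.6, 17.8, 17.7, 16.7 and 17.5 CPM in DMSO replicates 1 to 5 and 46.1, 54.6, 51.1, 50.7 and 41.2 CPM in SFN replicates 1 to 5. The lowest SFN library was thus well above the highest DMSO library, which was replicate 1. The mean rose from 19.6 ± 5.02 CPM (SD, n = 5) to 48.7 ± 5.21 CPM (SD, n = 5), a log2 fold change of 1.31 (standard error 0.16, adjusted p = 0.00014, edgeR). It was 1.48 (standard error 0.10) when DMSO replicate 1 was left out.

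DUSP4 (ENSG00000120875, chr8:29333064-29350684, minus strand, 4 exons) encodes a nuclear phosphatase of ERK, JNK and p38. Its level was 56.0, 34.7, 31.7, 34.6 and 36.4 CPM in the DMSO replicates and 17.8, 25.2, 19.1, 17.9 and 17.2 CPM in the SFN replicates. The groups did not overlap, although replicate 1 was high in DMSO and replicate 2 high in SFN. The mean fell from 38.7 ± 9.83 CPM (SD, n = 5) to 19.4 ± 3.30 CPM (SD, n = 5), a log2 fold change of -0.995 (standard error 0.18, adjusted p = 0.0016, edgeR). It was -0.83 (standard error 0.11) without DMSO replicate 1, and -1.10 without SFN replicate 2.

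DUSP1 (ENSG00000120129, chr5:172768096-172771195, minus strand, 4 exons) is an immediate early gene whose product inactivates p38, JNK and ERK. It was measured at 22.1, 15.7, 15, 14.4 and 15.5 CPM in DMSO and at 17.0, 18.6, 19.1, 17.1 and 17.8 CPM in SFN. The SFN values sat between DMSO replicate 1 and the other DMSO replicates, so the groups overlapped through that library alone. SFN differed from DMSO by 0.12 on the log2 scale (standard error 0.13, adjusted p = 0.59, edgeR). Without DMSO replicate 1 it was 0.24 (standard error 0.09, adjusted p = 0.0504, edgeR), with every SFN value above the 4 remaining DMSO values.

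DUSP2 (ENSG00000158050, chr2:96143169-96145440, minus strand), a nuclear phosphatase best known from activated lymphocytes, was barely detected. It had between 0 and 11 counts in a DMSO library (30 in all) and between 0 and 2 in an SFN library (4 in all). In CPM this was 0.341 ± 0.25 (SD, n = 5) and 0.0552 ± 0.0757 (SD, n = 5), a difference not significant by a two-sided exact permutation test (p = 0.056, where the smallest p the design allows is 0.0079).

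The cytoplasmic phosphatases of ERK moved in opposite directions. DUSP6 (ENSG00000139318, chr12:89347235-89352501, minus strand, 3 exons), whose transcription follows ERK activity in many cells, had 12.8, 7.61, 7.55, 8.43 and 8.35 CPM in DMSO and 25.4, 33.4, 25.6, 25.1 and 28.1 CPM in SFN. Each SFN library was well above the highest DMSO library, replicate 1. The mean rose from 8.94 ± 2.18 CPM (SD, n = 5) to 27.5 ± 3.49 CPM (SD, n = 5), a log2 fold change of 1.62 (standard error 0.16, adjusted p = 3.3e-05, edgeR), the largest increase among the 8 genes tested. Without DMSO replicate 1 it was 1.78 (standard error 0.11).

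DUSP7 (ENSG00000164086, chr3:52048919-52056571, minus strand, 3 exons), a close relative of DUSP6 that acts on ERK, fell. It had 14.9, 24.7, 23.9, 21.6 and 28.0 CPM in DMSO and 6.74, 8.63, 8.34, 8.64 and 9.18 CPM in SFN. All SFN values were below the lowest DMSO value, which again came from replicate 1. The mean fell from 22.6 ± 4.87 CPM (SD, n = 5) to 8.30 ± 0.928 CPM (SD, n = 5), a log2 fold change of -1.45 (standard error 0.17, adjusted p = 8.8e-05, edgeR), the largest decrease among the 8. It was -1.57 (standard error 0.12) without DMSO replicate 1.

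The change in balance inside each pair can be read from raw counts of the same library, which no scaling between libraries affects. The ratio of DUSP6 to DUSP7 counts was 0.854, 0.308, 0.315, 0.390 and 0.298 in the DMSO libraries and 3.77, 3.87, 3.07, 2.91 and 3.06 in the SFN libraries. The ratio of DUSP5 to DUSP4 counts lay between 0.480 and 0.557 in DMSO and between 2.17 and 2.84 in SFN. For DUSP5 and DUSP4 the DMSO replicates were tightly grouped, with replicate 1 (0.511) inside the range of the rest, whereas for DUSP6 and DUSP7 replicate 1 was the highest DMSO value. These pairs were chosen after their values were seen, so the ratios are a description without a test.

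**Figure D2:**
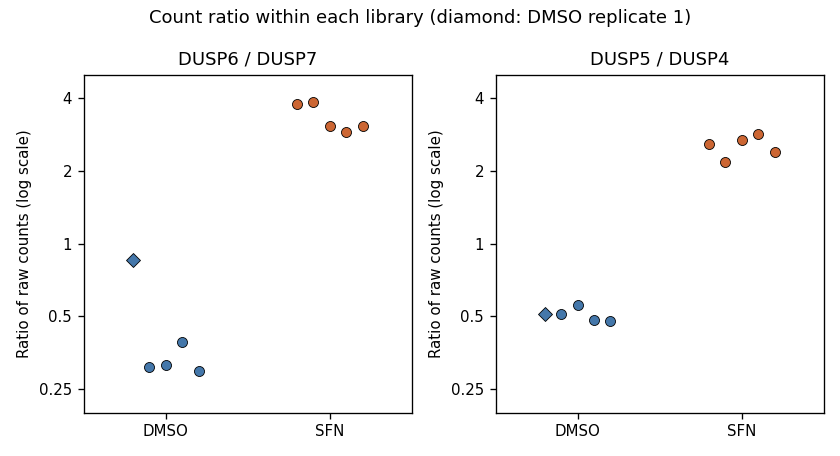
Ratio of raw counts within each library on a log scale, for DUSP6 over DUSP7 (left) and DUSP5 over DUSP4 (right), with 5 DMSO and 5 SFN libraries and DMSO replicate 1 as a diamond. The SFN libraries lie between 2.91 and 3.87 on the left and between 2.17 and 2.84 on the right, above every DMSO library in both.

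The phosphatases of JNK and p38 were decreased or did not pass the test. DUSP10 (ENSG00000143507, chr1:221701424-221742089, minus strand, 4 exons) had 9.53, 5.01, 4.42, 5.84 and 3.97 CPM in DMSO and 2.5, 3.8, 1.79, 4.39 and 2.54 CPM in SFN. The groups overlapped, since SFN replicate 4 was above DMSO replicate 5. The log2 fold change was -0.94 (standard error 0.30, adjusted p = 0.040, edgeR), from 5.75 ± 2.22 to 3 ± 1.06 CPM (SD, n = 5 each). This call was held in 11 of 17 alternative analyses, in which the adjusted p ranged from 0.0019 to 0.097, and was lost with limma-voom on quantile normalized values and when DMSO replicate 2 or 4 or SFN replicate 1, 3 or 5 was left out. Leaving out DMSO replicate 1, the highest DMSO library, gave -0.69 (adjusted p = 0.0257, edgeR).

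DUSP16 (ENSG00000111266, chr12:12473282-12562863, minus strand, 7 exons), which prefers JNK, had 15.1, 19.9, 26.4, 24.3 and 24.1 CPM in DMSO and 28.0, 23.6, 28.2, 25.9 and 31.5 CPM in SFN. Only SFN replicates 2 and 4 were inside the DMSO range. The log2 fold change of 0.32 (standard error 0.15, adjusted p = 0.16, edgeR) was not significant, and it was 0.21 without DMSO replicate 1, the lowest DMSO library.

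DUSP8 (ENSG00000184545, chr11:1554051-1572271, minus strand, 7 exons) had 23, 14, 31, 14 and 10 counts in the DMSO libraries and 3, 4, 7, 4 and 0 in the SFN libraries. In CPM this was 1.05 ± 0.509 (SD, n = 5) against 0.263 ± 0.193 (SD, n = 5), with every SFN value below every DMSO value (p = 0.0079 by a two-sided exact permutation test, the smallest the design allows). With the low-count filter omitted, edgeR gave a log2 fold change of -1.99 (standard error 0.57, adjusted p = 0.028 over all genes). The transcript of the pseudogene DUSP8P5 is 90.7% identical to that of DUSP8 over 1421 of its 4824 bases, so reads could be split between them. DUSP8P5 had 76 counts in all DMSO libraries and 83 in all SFN libraries, where DUSP8 had 92 and 18.

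DUSP14 (ENSG00000276023, chr17:37489891-37513501, plus strand, 3 exons), the atypical member, had 28.3, 28.4, 27.7, 31.6 and 32.8 CPM in DMSO and 39.6, 45.9, 42, 39.1 and 33.8 CPM in SFN. The groups did not overlap, but the lowest SFN library was only just above the highest DMSO library. SFN exceeded DMSO by 0.43 on the log2 scale (standard error 0.11, adjusted p = 0.015, edgeR), from 29.8 ± 2.29 to 40.1 ± 4.41 CPM (SD, n = 5 each). This call was lost with library size as the only scaling (adjusted p = 0.073) and without the low-count filter (adjusted p = 0.059) and with the replicate block (adjusted p = 0.064), and it held in 14 of 17 alternatives, in which the adjusted p ranged from 0.00016 to 0.073.

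DMSO replicate 1 did not shift the members in 1 direction. Relative to the mean of the other 4 DMSO libraries, its CPM was 1.46 to 1.64 times as high for DUSP1, DUSP4, DUSP5 and DUSP6, 1.98 times as high for DUSP10, 0.938 times for DUSP14, and 0.608 and 0.636 times for DUSP7 and DUSP16. DUSP2 and DUSP8, which had few counts, were 2.69 and 1.51 times as high in that library. All 6 significant genes kept their direction and their call without DMSO replicate 1. Because whole cultures were sequenced, a change in mRNA per cell and a change in the share of cells that express the gene cannot be told apart.

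**Figure D3:**
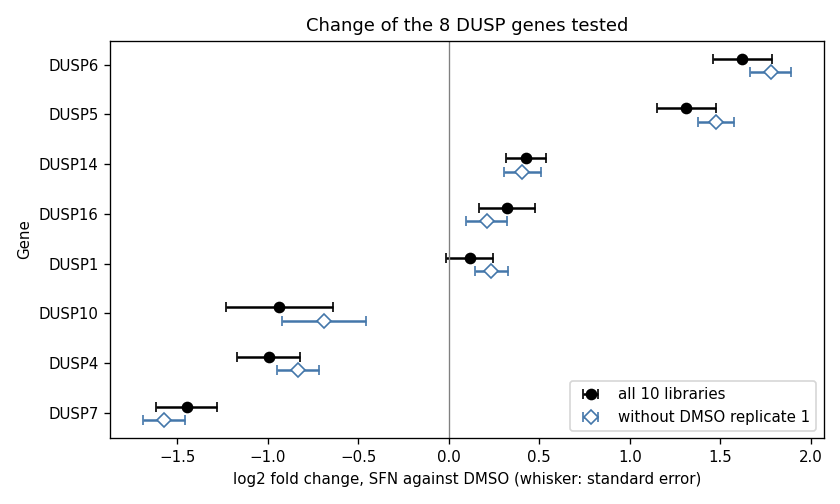
Log2 fold change of SFN against DMSO for the 8 DUSP genes tested, with the standard error as whisker, from all 10 libraries (filled) and without DMSO replicate 1 (open). DUSP6, DUSP5 and DUSP14 lie above 0 and DUSP10, DUSP4 and DUSP7 below 0 in both, and the whisker of DUSP1 reaches 0 only with all libraries.

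For each significant member, the 3 genes most like it were taken as those with the smallest root mean square distance of centred log2 CPM over the 10 libraries. DUSP5 was closest to MAFG (distance 0.103), GCLM (0.141) and HMOX1 (0.142), which encode a small MAF partner of NRF2, a subunit of the glutathione-synthesis enzyme and heme oxygenase 1. Of 6 NRF2 response genes examined, GCLM and HMOX1 were the only 2 increased, and 0 were decreased. Of all genes tested, 9.07% were increased and 13.9% decreased. TXNRD1, SRXN1, NQO1 and GCLC did not pass the test, with log2 fold changes of 0.61, 0.40, 0.31 and -0.30. Among the 3 genes closest to DUSP6 were MIR22HG (0.153) and FAM72D (0.167), the latter being 1 of several near-identical paralogs whose counts are uncertain. DUSP7 was closest to AJUBA (0.136), UAP1L1 (0.15) and IRS1 (0.151), the last an insulin receptor substrate. DUSP4 was closest to SLC20A1 (0.110), ZNF138 (0.116) and HOMEZ (0.139), DUSP14 to CLDND1 (0.0497), EFEMP1 (0.0694) and CNN3 (0.0749), and DUSP10 to RXRA (0.207), ZNF48 (0.220) and SNHG15 (0.228). All genes share the same 10 libraries, so these distances are a description of likeness only.

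Of 8 genes outside the DUSP family whose mRNA is commonly read as ERK output, 3 were increased and 0 decreased by edgeR (0 decreased at an unadjusted p under 0.05, 0 by DESeq2, 0 by limma-voom with quantile normalization, 2 with limma sample weights and 1 by edgeR without DMSO replicate 1). The feedback inhibitors SPRY4 and SPRY2 rose from 7.16 ± 3.39 to 18.0 ± 2.68 CPM and from 28.8 ± 6.98 to 56.1 ± 5.51 CPM (SD, n = 5 each), with log2 fold changes of 1.33 and 0.96. The transcription factor ETV5 rose by 0.87 on the log2 scale, from 35.3 ± 4.81 to 64.4 ± 2.73 CPM. CCND1, EPHA2, EPHA4, ETV4 and PHLDA1 were not past the threshold, with log2 fold changes between -0.30 and 0.13. The score that this list was taken from also holds DUSP genes, which were left out of these counts. Among the members DUSP6 rose (1.62) and DUSP4 fell (-0.995). The median of the list was 0.09. For this and the following lists, the shares of all genes tested were 9.07% increased and 13.9% decreased. They were 22.5% and 23.5% without DMSO replicate 1.

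Of 14 immediate early genes tested, 5 were increased and 1 decreased (6 and 2 without DMSO replicate 1). EGR1, ATF3, MYC and IER2 had log2 fold changes of 4.17, 3.04, 1.13 and 0.98, and FOS (2.26) had 7 to 9 counts per DMSO library and 28 to 36 per SFN library. IER5 fell (log2 fold change -0.65, standard error 0.19, adjusted p = 0.025, edgeR), a call lost without DMSO replicate 3 or SFN replicate 1, 2, 3 or 5. JUN, JUNB, FOSB, FOSL1, IER3, NR4A1, NR4A2 and SRF did not pass the test, as DUSP1 did not. The median of the list was 0.29.

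MAP kinases are the substrates of these phosphatases. Among 11 MAP kinases tested, 0 were increased (1 at an unadjusted p under 0.05, 0 by DESeq2, 0 by limma-voom with quantile normalization, 1 with limma sample weights and 1 without the low-count filter, which tests more genes). MAPK7, which encodes ERK5, decreased (log2 fold change -0.90, standard error 0.24, adjusted p = 0.020, edgeR). That call was lost with limma-voom on quantile normalized values, with the replicate block and without DMSO replicate 3 or SFN replicate 3. MAPK3, an ERK gene, had a log2 fold change of 0.37, and the JNK genes MAPK8 and MAPK9 0.04 and 0.18. The p38 genes MAPK11, MAPK12, MAPK13 and MAPK14 had -0.02, -0.44, 0.24 and 0.02, with an adjusted p of 0.052 (edgeR) for MAPK12. The number decreased was 2 without DMSO replicate 1 or 5, by DESeq2, with library size only and with limma sample weights. The list median was 0.04.

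Of 6 MAP2 kinases tested, 2 were increased, MAP2K4 (log2 fold change 0.43), an activator of JNK, and MAP2K5 (0.38), the activator of ERK5. Neither was called without DMSO replicate 2, 3 or 4, with library size only, without the low-count filter or with the replicate block. Only 1 MAP2 kinase was increased without DMSO replicate 5 and without SFN replicate 1, 3, 4 or 5. The number decreased was 2 without DMSO replicate 1. MAP2K7, another activator of JNK, went the other way with all libraries and was not significant (log2 fold change -0.33, standard error 0.12, adjusted p = 0.071, edgeR). Of 22 MAP3 kinases, 4 were decreased more than 2-fold, MAP3K21 (log2 fold change -2.02), MAP3K8 (-1.64), MAP3K9 (-1.35) and MAP3K12 (-1.29), of which MAP3K9, MAP3K12 and MAP3K21 belong to the mixed lineage kinases that feed JNK. The class as a whole did not fall. Its members MAP3K10 (0.25), MAP3K11 (-0.14), MAP3K13 (-0.03) and MAP3K20 (-0.006) did not pass the test. MAP3K7, which encodes TAK1, was increased (0.35, standard error 0.10, adjusted p = 0.022, edgeR), a call lost without DMSO replicate 2 or 5 or SFN replicate 1 or 3, with library size only, without the low-count filter and with the replicate block. Without DMSO replicate 1, 8 MAP3 kinases were decreased and 2 increased. ARAF and BRAF had log2 fold changes of 0.13 and 0.34 and were not significant.

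Downstream and beside the cascade, 1 of 11 MAPK-activated kinases was increased, near the 9.07% of all genes tested. It was MAPKAPK2 (log2 fold change 0.53, standard error 0.08, adjusted p = 0.00075, edgeR), the main p38 effector kinase. Of 12 RAS and scaffold genes, LAMTOR3 (0.70) and SOS2 (0.67) were increased and KSR1 (-1.74), a scaffold of the RAF, MEK and ERK module, decreased. In each of these lists 2 genes were decreased without DMSO replicate 1, when 23.5% of all genes tested were decreased. Of 7 other phosphatases that act on MAP kinases, PPP2CB (0.76) and PPP2R1A (0.41), subunits of protein phosphatase 2A, were increased and 0 decreased (0 at an unadjusted p under 0.05, 0 by DESeq2 and 0 by both limma analyses). The number increased was 1 without DMSO replicate 4 or SFN replicate 3 and 5 without DMSO replicate 1. It was 4 by DESeq2 and 5 with limma sample weights.

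Among 11 other dual-specificity phosphatases tested, 1 was increased and 2 were decreased, while 3 were increased without DMSO replicate 1 and 5 with limma sample weights. DUSP19, which acts in the JNK pathway, rose by 0.92 on the log2 scale (standard error 0.19, adjusted p = 0.0046, edgeR), from a mean of 2.71 to 5.16 CPM. DUSP18 fell by 1.54 on the log2 scale (standard error 0.21, adjusted p = 0.00025, edgeR), from a mean of 5.78 to 1.99 CPM, and DUSP11, an RNA phosphatase, fell by 0.51. DUSP9, the third cytoplasmic ERK phosphatase beside DUSP6 and DUSP7, had between 1 and 17 counts in a library and a log2 fold change of 0.29 (standard error 0.44). DUSP3, DUSP12, DUSP22, DUSP23 and DUSP28 and the pseudophosphatases STYX and STYXL1 did not pass the test, with log2 fold changes between -0.05 and 0.29.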

How the data were processed

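RNA from 5 SFN and 5 DMSO replicates of RPE-1 cells was sequenced. The authors deposited unnormalized counts for each Ensembl gene, made from Lexogen QuantSeq 3′ reads with the Bluebee pipeline. The submitters' processing notes name FastQC, STAR, featureCounts, edgeR and the build hg38 (GRCh38). The annotation release, strand setting and use of molecular identifiers are not given in the sources used here, so sense and antisense reads may be pooled. Antisense genes overlapping DUSP1, DUSP6, DUSP8 and DUSP16 that were counted had at most 4 counts in a library.

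Here counts were filtered with filterByExpr, TMM-scaled and compared with glmQLFTest, in edgeR 4.0.16 (R 4.3.3). DESeq2 1.42.0 and limma 3.58.1 served for alternatives. P-values were Benjamini-Hochberg adjusted over all genes tested. Standard errors were taken from the size of the change and its F statistic. Positions are from GENCODE 44. The method was tested on simulated data in which no library was made to stand apart, as DMSO replicate 1 did in the real data. Replicates differed by more than sampling noise (chi-square per degree of freedom at least 3.70). The members and lists were chosen with earlier results of these data known. Every member was named, and from each list up to 4 significant genes with at least 5 CPM in either group; other genes, among them FOS, IER5, MAP3K8 and those not significant, were named after their values were seen. Alternatives covered scaling, test, filter, sample weights, fold limit, a replicate block and leaving out each replicate. The values of a few genes in the lists are not reported here.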

Additional observations from a re-analysis of the deposited data

Results flagged for a closer look

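In 20 groups of 5 replicates (10 genes, DMSO and SFN), 5 held 1 replicate far from the rest, and about 1 in 20 is expected by chance. The value given is the gap to the nearest replicate as a share of the range of the group. DMSO replicate 1 was the highest DMSO library for DUSP5 (0.91), DUSP1 (0.83), DUSP6 (0.83) and DUSP4 (0.81). SFN replicate 2 was the highest SFN library for DUSP4 (0.76).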

How the results depend on the processing

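DUSP4, DUSP5, DUSP6 and DUSP7 were significant in the same direction in all 17 alternative fits, with log2 fold changes of -1.10 to -0.83, 1.25 to 1.49, 1.55 to 1.78 and -1.61 to -1.31. With limma sample weights 5 members were increased, DUSP1 (log2 fold change 0.22) and DUSP16 (0.26) being added. With the fold limit of 2, 1 member was decreased. The DUSP10 log2 fold change was -0.76 and not significant with limma-voom on quantile normalized values, and between -1.11 and -0.69 with replicates left out. DUSP14 was not significant with library size only (0.34), without the low-count filter (0.42) or with the replicate block (0.43). Replicates left out gave 3 members increased each time and 2 to 4 decreased. The 4 arose without DMSO replicate 5 and without SFN replicate 2. There DUSP4, DUSP7, DUSP10 and a member that the main filter had removed were called. Without DMSO replicate 4 or SFN replicate 3 or 5, 3 members were decreased although DUSP10 was not called. There too a member that the main filter had removed made up the count. The study's methods state that repeated measures were modelled, without saying which samples were linked. In the main fit the replicate numbers were not treated as pairs, since the linked samples are not named. The correlations of same-numbered deviations lay between -0.37 and 0.60, too wide a range to settle whether the numbers mark pairs. Another dependency between samples was not tested. Under the replicate block 911 genes were increased and 1530 decreased, against 1214 and 1862 without it. Without DMSO replicate 1 these counts were 3058 and 3193, with limma sample weights 3874 and 4041, and with the fold limit 393 and 770. The median log2 fold change of all genes was -0.11 with library size only and -0.03 with TMM, and increased genes made up 27.5% and 39.5% of calls. Of the alternatives for other results, 288 stayed within 1.5 times or 1 SD and 78 did not. DUSP2 and DUSP8, with at most 31 counts in a library, were too shallow for the filtered test on all 10 libraries.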
